A study of Drosophila melanogaster with 18 samples.

Results

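Ovaries of Drosophila melanogaster females of the LP line that were in reproductive diapause at 12 °C were compared with ovaries of LP females that stayed persistently reproductive at the same 12 °C. Each group had 3 libraries, so the comparison used 6 of the study's 18 libraries, chosen by line, state and temperature as the labels give them. LP stands for low plasticity and is 1 of 2 inbred lines of the study. The other line is HP, for high plasticity, and both are labelled wild type. The study also holds age controls of both lines, which were 28 days old at 25 °C. The age of the females kept at 12 °C, the criterion that separated diapausing from reproductive females and the number of animals in a library are not given in the sources used here. All 6 libraries are labelled as ovaries of egg chamber stages 1-7 and as numbered biological replicates. Poly(A) RNA of whole samples was sequenced, and in such bulk samples fewer cells of a type and less RNA per cell cannot be told apart.

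Ovarian diapause in this species is a state of cold and short days in which egg chambers stop before or around the start of yolk uptake while the female stays alive and can later resume egg laying. An egg chamber holds an oocyte and nurse cells, which are germline, inside a sheet of somatic follicle cells. The follicle cells first divide, then stop dividing, and late in oogenesis make the vitelline membrane and the chorion, the layers of the eggshell. The growing germline loads the oocyte with maternal messages for meiosis, for the first embryonic divisions and for the body axes. Persistently reproductive females at the same temperature are a reference in which cold is shared and the state of the ovary differs.

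The 6 libraries held between 17216067 and 20415905 counted reads. The germline RNA helicase gene vas was at 297 ± 5.48 CPM (SD, n = 3) in reproductive and 302 ± 11.3 (n = 3) in diapause libraries, a difference of 0.03 ± 0.04 (SE) on the log2 scale. CPM is the count of a gene relative to the total of its library, here scaled by TMM, a factor that adjusts for differences in library composition. In a principal component analysis of the 6 libraries, the first component held 40.6% of the variance. Diapause replicates 1 and 3 lay at -25.6 and -25.2 on it and the reproductive libraries between 9.88 and 25.8. Diapause replicate 2 lay at -6.41, so it stood apart from the other diapause libraries on the side of the reproductive ones. Eggshell genes, 32 in all, took 0.630%, 0.707% and 0.755% of the counts in reproductive libraries 1 to 3. The same genes took 0.196% and 0.198% in diapause replicates 1 and 3 and 0.476% in replicate 2. Messages of eggshell genes were therefore present in all 6 libraries, and replicate 2 held more of them than the other diapause libraries. Whether they came from later egg chambers than the labelled stages was not tested. Results are given with all 3 diapause libraries, and those that rest on replicate 2 also without it. Replicate 2 was singled out by these messages and by its place on the first component. Values of eggshell, yolk and other late messages without it are therefore a description and no test. The same holds for counts of called genes without it.

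The difference between the states at 12 °C was small for most genes, and more genes were called lower than higher. Of 9037 tested genes, 131 (1.45%) passed an adjusted p of 0.05 in edgeR's quasi-likelihood test with Benjamini-Hochberg adjustment. In diapause 31 of them (0.343% of the tested genes) were higher and 100 (1.11%) were lower. The median log2 fold change was 0.47 for the higher and -0.38 for the lower genes, and 19 genes changed more than 2-fold. Over all tested genes the median change was 0.01, with 4707 estimates above and 4322 below 0, and 1492 genes had an unadjusted p under 0.05. In all 131 called genes the 3 diapause libraries lay entirely on 1 side of the 3 reproductive ones, which was the case for 13.4% of all tested genes in the higher and 12.7% in the lower direction. With libraries scaled by total counts alone, 174 genes passed and 13.2% of them were higher, against 23.7% with TMM. A fit on the 6 libraries alone called 124 higher and 138 lower genes, so that 47.3% were higher.

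**Figure D1:**
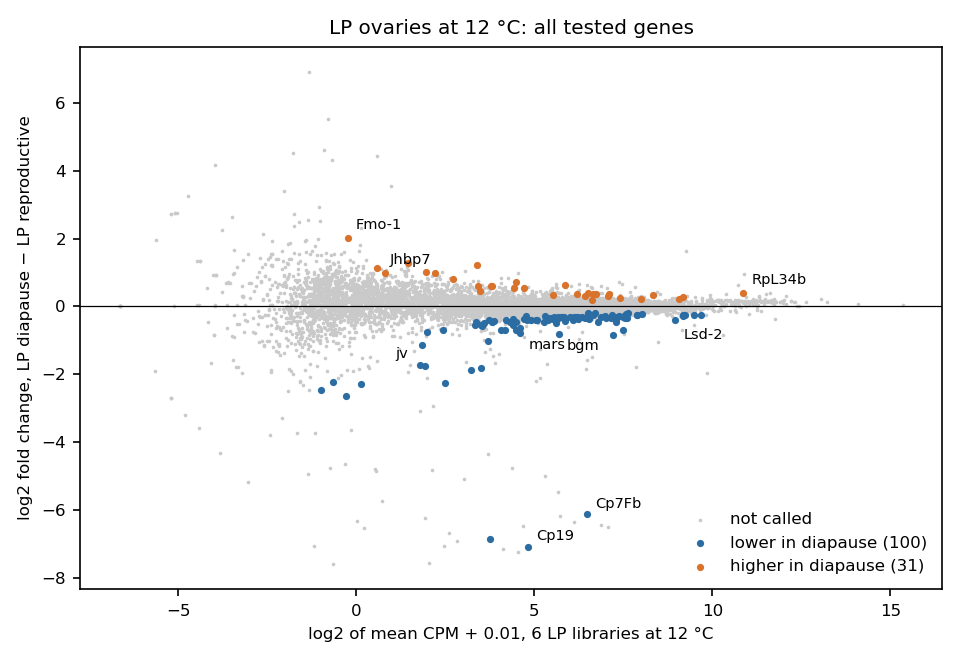
Log2 fold change of LP diapause over LP reproductive ovaries (vertical axis) against the log2 of the mean CPM over the 6 libraries at 12 °C (horizontal axis) for the 9037 tested genes. The 100 genes called lower (blue) and 31 called higher (orange) lie mostly close to 0. The chorion genes Cp19 and Cp7Fb and the unnamed gene CG11381 stand far below the other called genes. Some genes that were not called lie as low.

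The number of calls depended on single libraries. Without diapause replicate 2 there were 279 calls (82 higher, 197 lower), of which 118 were among the 131. That count is a description, because the library left out was the diapause one nearest to the reproductive libraries. Without diapause replicate 1 or 3 there were 11 or 6 calls, and without reproductive replicate 1, 2 or 3 there were 14, 17 or 21. Of the 131, 4 genes passed in all 6 of these fits, among them jv, CG9864 and bgm. CG9411 and mars passed in 5 of the 6, and 85 of the 131 passed in 1 of them. For each of these 85 genes that fit was the one without diapause replicate 2. A further 13 of the 131 passed in 0 of the 6 fits. The sign of the change was the same in all 6 fits for each of the 131 genes. This follows from groups that did not overlap in any of them and is no test of stability.

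Part of the cell division genes fell in diapause. Of their 4 gene lists, 17 members fell and none rose. In the list of mitotic entry, 3 of 29 tested genes fell, 28 of the 29 estimates lay below 0 and the median was -0.19. The spindle checkpoint and anaphase-promoting complex list had 7 of 26 lower at a median of -0.17, the kinetochore list 3 of 15 at -0.39, and the list of spindle motors and microtubule proteins 4 of 35 at -0.18. These shares stand beside 1.11% lower and a median of 0.01 over all tested genes. As a description, without diapause replicate 2 the same lists had 6, 9, 5 and 5 genes lower. Without diapause replicate 3 they had 0 in each list, and without replicate 1 they had 0, 0, 0 and 1. Without reproductive replicate 1 they had 0, 0, 0 and 1, without replicate 2 they had 1, 0, 0 and 1, and without replicate 3 they had 1, 1, 1 and 2.

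Among the regulators of mitotic entry, string (stg), the Cdc25 phosphatase that activates the mitotic kinase Cdk1, was at 205, 193 and 193 CPM in reproductive replicates 1 to 3 and at 151, 162 and 167 CPM in diapause replicates 1 to 3. It fell by 0.30 ± 0.06 (SE) on the log2 scale, with an adjusted p of 0.0283. Aurora A (aurA), a kinase of centrosomes and spindle poles, was at 51.2, 46.6 and 45.2 CPM against 35.0, 37.5 and 34.8 CPM in diapause. Its groups did not overlap, and it fell by 0.41 ± 0.07 (adjusted p = 0.0129). Nek2, another centrosomal kinase, was at 22.1, 21.9 and 18.6 CPM in reproductive and 10.5, 15.3 and 12.5 CPM in diapause libraries, a fall of 0.71 ± 0.15 (adjusted p = 0.0342). Cyclin B (CycB), the partner of Cdk1, missed the threshold at 2264 ± 113 against 1951 ± 78.2 CPM (log2 difference -0.21 ± 0.06, adjusted p = 0.0546). Cdk1 itself was at 85.7 ± 2.87 and 78.4 ± 8.37 CPM, a difference of -0.13 ± 0.07 with an adjusted p of 0.390.

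The 7 called genes of the checkpoint and anaphase-promoting complex list fell by 0.30 to 0.62 on the log2 scale. The checkpoint genes mad2 (-0.47), Mps1 (-0.45), Zw10 (-0.30) and Zwilch (-0.55) encode proteins that delay anaphase at unattached kinetochores, and the values in parentheses are their log2 fold changes. fzy, the Cdc20 activator of the anaphase-promoting complex, was at 45.3, 47.0 and 42.6 CPM in reproductive and 32.6, 35.6 and 29.6 CPM in diapause libraries. It fell by 0.46 ± 0.10 (adjusted p = 0.0382). cort, an activator of the same complex that acts in female meiosis, fell by 0.41 ± 0.09 (adjusted p = 0.0360). thr, a partner of separase, was at 29.5, 32.2 and 27.3 CPM against 20.1, 20.9 and 16.7 CPM and fell by 0.62 ± 0.14 (adjusted p = 0.0393). The separase gene Sse, which is in none of the lists and was picked after its values were seen, fell by 0.49 ± 0.12 (adjusted p = 0.0454). Both the protease that cuts cohesin and its partner were thus lower in each diapause library than in any reproductive library.

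At the kinetochore, cmet, a kinesin of the CENP-E family, was at 62.5, 56.0 and 51.9 CPM in reproductive and 40.7, 44.9 and 36.1 CPM in diapause libraries. It fell by 0.48 ± 0.09 (adjusted p = 0.0239). Nuf2, of the microtubule-binding Ndc80 complex, fell by 0.40 and subito (sub), a kinesin of the meiotic spindle, by 0.48, each with an adjusted p of 0.0484. Of the spindle genes, mars, which encodes a microtubule-associated protein of the HURP family, moved most. It was at 28.2, 34.1 and 29.5 CPM in reproductive and 17.2, 19.8 and 16.6 CPM in diapause libraries and fell by 0.78 ± 0.12 (adjusted p = 0.00593). The augmin subunit gene dgt6 fell by 0.47, the centrosome gene spd-2 by 0.28 and the tubulin-modifying enzyme gene TTLL5 by 0.30. Grip71 (-0.37), which encodes a protein of the gamma-tubulin complex, and the maternal gamma-tubulin gene gammaTub37C (-0.30) were called lower as well. So was the F-box gene Skp2 (-0.44). These genes are outside the lists and were picked after their values were seen. Rnb, which is in none of the lists, was at 14.0, 14.3 and 13.4 CPM against 9.34, 10.1 and 8.68 CPM and fell by 0.57 ± 0.12 (adjusted p = 0.0283).

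**Figure D2:**
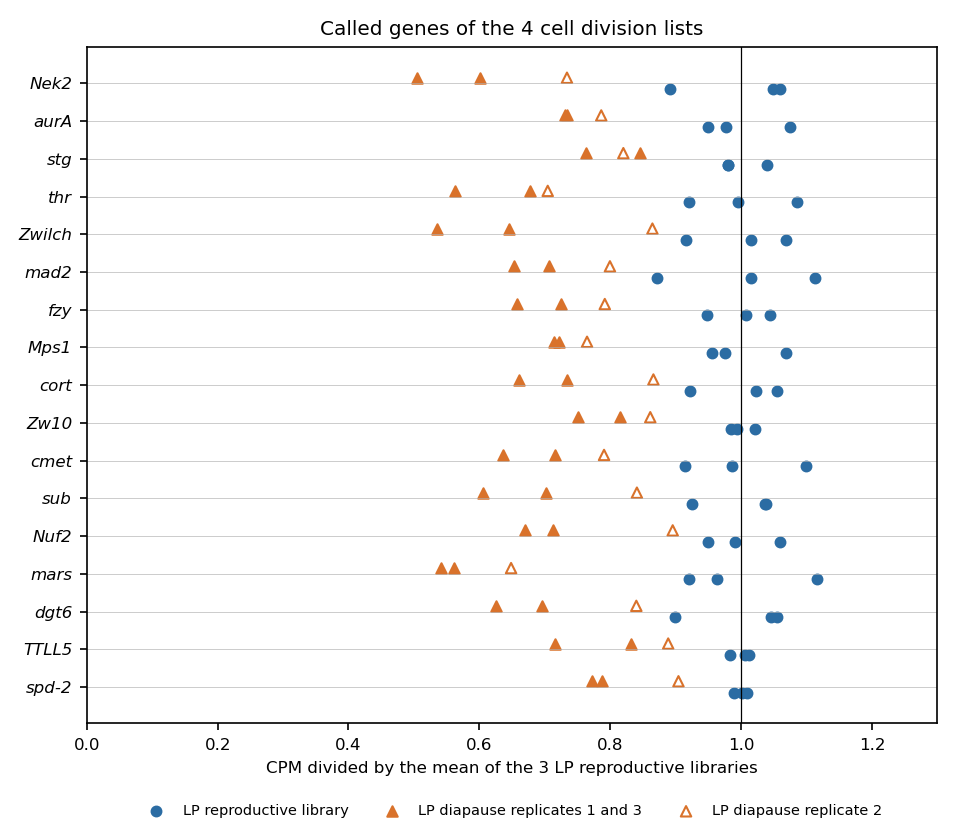
CPM of each LP library divided by the mean of the 3 LP reproductive libraries (horizontal axis) for the 17 called genes of the 4 cell division lists (vertical axis). Circles are reproductive libraries, filled triangles diapause replicates 1 and 3 and open triangles diapause replicate 2. Every triangle lies left of every circle of its gene, and replicate 2 is the diapause library nearest to the reproductive ones in each gene but stg.

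In the condensin and cohesin list, no gene of 21 passed, at a median of -0.10. The smallest p there belonged to Cap-D2, a condensin subunit, at 32.3 ± 1.57 CPM in reproductive and 25.5 ± 0.755 CPM in diapause libraries (log2 difference -0.34 ± 0.10, adjusted p = 0.0793). The gene glu, a second condensin subunit, differed by -0.24 ± 0.08 (adjusted p = 0.136). Of 48 DNA replication genes 1 fell, beside 1.11% of all tested genes, while 45 estimates were below 0 and the median was -0.14. That gene was RnrL, the large subunit of ribonucleotide reductase, which supplies deoxynucleotides, at 185, 194 and 172 CPM against 149, 163 and 140 CPM (log2 fold change -0.29 ± 0.07, adjusted p = 0.0454). Of 42 genes listed for DNA damage response and repair 4 fell, beside the same 1.11%, at a median of -0.12. They were the mismatch repair gene Msh6 (-0.38), the mutagen sensitivity genes mus301 (-0.37) and mus302 (-0.39), and Marf1 (-0.26), which is better known as an RNA-binding regulator of the oocyte. The call of mus301 was lost whenever 1 of the 6 libraries was left out.

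Eggshell genes had the lowest estimates of the lists, though few passed the test. All 9 chorion genes were lower in each diapause library than in any reproductive library, beside 12.7% of all tested genes. Their median was -6.36 on the log2 scale, and 2 of the 9 were called, beside 1.11% called lower over all tested genes. Cp19, a chorion gene on chromosome arm 3L (8729865 to 8730604), was at 48.0, 10.6 and 110 CPM in reproductive replicates 1 to 3 and at 0.363, 0.545 and 0.306 CPM in diapause replicates 1 to 3. It fell by 7.09 ± 1.19 on the log2 scale (adjusted p = 0.0261). Cp7Fb, in the chorion cluster of the X chromosome (8473837 to 8476071), was at 363, 122 and 45.4 CPM in reproductive and 0.519, 5.67 and 1.28 CPM in diapause libraries. It fell by 6.13 ± 1.33 (adjusted p = 0.0484), a call that was lost whenever 1 of the 6 libraries was left out.

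The chorion genes that were not called varied widely among the reproductive libraries. Cp36, a major chorion protein gene, was at 290, 78.0 and 431 CPM in reproductive and 0.674, 6.76 and 1.28 CPM in diapause libraries (log2 difference -6.51 ± 1.46, adjusted p = 0.0508). Cp18 was at 19.9, 5.15 and 383 CPM against 1.56, 1.47 and 1.96 CPM (-6.36 ± 2.00, adjusted p = 0.131). Reproductive replicate 3 was the highest library for Cp18 but the lowest of its group for Cp7Fb. The 9 genes together took 0.110%, 0.0331% and 0.184% of the counts in the reproductive libraries and from 0.00059% to 0.00272% in the diapause libraries.

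The vitelline membrane genes, which follicle cells express before the chorion genes, separated diapause replicate 2 from replicates 1 and 3. In that list of vitelline membrane and other eggshell proteins, 20 of 21 estimates were below 0 at a median of -1.57. The list had 1 called gene, beside 1.11% called lower over all tested genes. The large vitelline membrane and eggshell gene dec was at 1347, 1810 and 1263 CPM in the reproductive libraries and at 78.8, 956 and 99.8 CPM in diapause replicates 1 to 3 (log2 difference -1.96 ± 0.72, adjusted p = 0.187). Vm32E, a vitelline membrane protein gene, was at 131, 198 and 78.6 CPM against 6.17, 97.8 and 8.74 CPM, so that replicate 2 lay inside the reproductive range. Without replicate 2, which was set apart for these very messages, the median of the list was -2.60, and the log2 differences were -4.05 ± 0.27 for dec and -4.20 ± 0.55 for Vm32E. These values follow from that choice and are given without a test. The chorion genes stayed below the reproductive range in replicate 2. The gene called with all libraries was nudel (ndl), a serine protease gene of embryo polarity and eggshell assembly, at 220, 226 and 219 CPM in reproductive and 117, 172 and 124 CPM in diapause libraries (log2 fold change -0.69 ± 0.13, adjusted p = 0.0283).

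**Figure D3:**
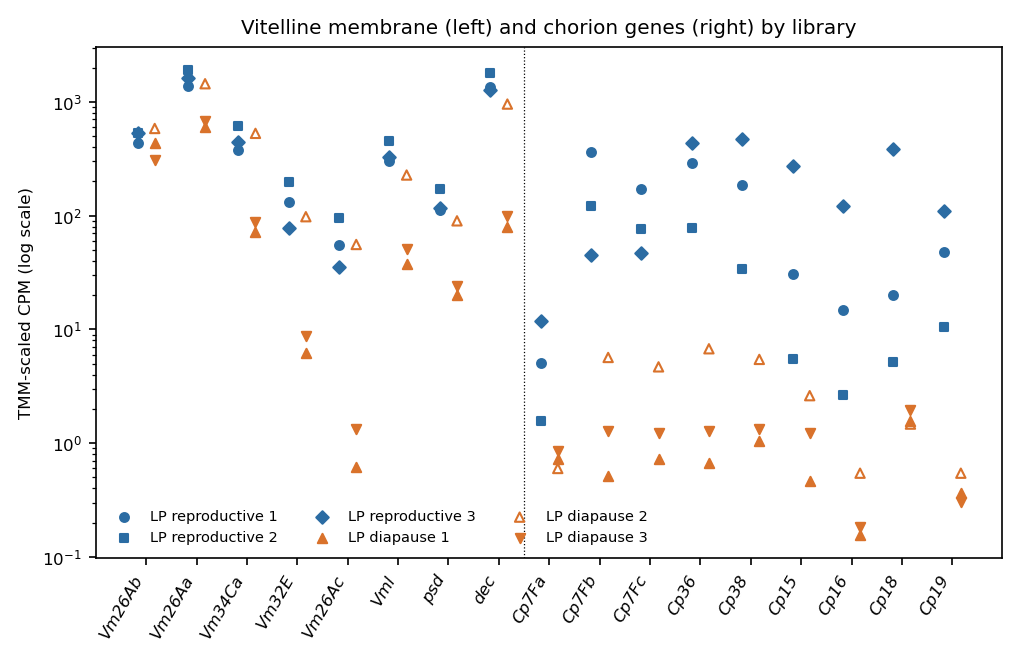
TMM-scaled CPM on a log axis (vertical) of 8 vitelline membrane genes and 9 chorion genes (horizontal, divided by the dotted line) in the 6 LP libraries. Blue symbols are reproductive libraries and orange triangles diapause libraries, with replicate 2 open. In dec, replicate 2 was at 956 CPM while replicates 1 and 3 were at 78.8 and 99.8, and in Cp19 all 3 diapause libraries were under 0.6 CPM.

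No yolk gene passed the test. Yp3, a yolk protein gene, was at 600, 725 and 787 CPM in reproductive and 318, 586 and 400 CPM in diapause libraries (log2 difference -0.70 ± 0.22, adjusted p = 0.136). Yp1 differed by -0.54 ± 0.20 (adjusted p = 0.178). The yolk receptor gene yl was at 3667 ± 128 CPM in reproductive and 3997 ± 153 CPM in diapause libraries, a difference of 0.12 ± 0.08 with an adjusted p of 0.433.

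Outside the eggshell, jv, CG9864 and bgm were among the genes whose calls survived the loss of any 1 library. The gene javelin (jv), named for the shape of bristles in mutants and located on 3L (6563197 to 6589479), was at 6.41, 5.82 and 3.71 CPM against 1.66, 1.74 and 1.41 CPM. It fell by 1.72 ± 0.24 (adjusted p = 0.00233). CG9864, an unnamed gene on 2R (20248130 to 20254670), was at 14.4, 17.5 and 12.6 CPM against 5.50, 4.41 and 2.14 CPM and fell by 1.86 ± 0.23 with the same adjusted p. bubblegum (bgm), an acyl-CoA synthetase gene of very long chain fatty acid metabolism on 2L (14013004 to 14019328), was at 60.9, 65.5 and 69.4 CPM in reproductive and 34.8, 46.7 and 30.6 CPM in diapause libraries. It fell by 0.80 ± 0.12 (adjusted p = 0.00569). In none of these 3 genes did the groups overlap.

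A receptor of ovulation and a sodium transporter fell from low levels. Oamb, an octopamine receptor that acts in the oviduct and in follicle cells at ovulation, was at 4.25, 4.75 and 5.93 CPM against 3.11, 2.07 and 1.59 CPM in diapause. It fell by 1.13 ± 0.25 (adjusted p = 0.0342). In its list of oviduct, spermatheca and tracheal genes it was the single gene called of 15, and the median of the list was 0.66, in the opposite direction. Nha1, a sodium/proton antiporter gene, was at 5.57, 6.84 and 5.21 CPM in reproductive and 3.37, 1.04 and 0.672 CPM in diapause libraries and fell by 1.76 ± 0.37 (adjusted p = 0.0360). The other 18 tested genes of the sodium transport list were not called. The single calls of Oamb and Nha1 in their lists stand beside 1.11% called lower over all tested genes.

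Few maternal messages of the germline were called. Of 36 tested genes of the germline stem cell and cyst list, nanos and bicoid (bcd) were called lower, beside 1.11% of all tested genes. The list's median was -0.04, and 17 of the 36 estimates were above 0. The groups did not overlap in 15 of the 36 genes in the lower and in 4 in the higher direction, beside 12.7% and 13.4% of all tested genes. Together the list's 38 genes took 1.34%, 1.36% and 1.36% of the counts in diapause replicates 1 to 3. In reproductive replicates 1 to 3 they took 1.47%, 1.42% and 1.44%. nanos, a translational repressor that marks the posterior of the egg, was at 187, 167 and 194 CPM in reproductive and 118, 158 and 123 CPM in diapause libraries and fell by 0.45 ± 0.10 (adjusted p = 0.0350). Its exons overlap those of genes on the other strand, CG11779 and Nsun5. bcd, the determinant of the anterior, was at 52.8, 51.0 and 53.3 CPM against 37.8, 47.4 and 36.2 CPM and fell by 0.37 ± 0.09 (adjusted p = 0.0454). oskar (osk), which assembles the germ plasm, was at 451 ± 24.0 and 483 ± 42.9 CPM and differed by 0.10 ± 0.08 (adjusted p = 0.561). Among meiotic genes 1 of 15 fell, matrimony (mtrm), an inhibitor of Polo kinase in the oocyte, by 0.29 ± 0.07 (adjusted p = 0.0484). Outside the lists, and picked after their values were seen, the oocyte poly(A) polymerase gene wisp was at 665, 617 and 626 CPM against 504, 545 and 536 CPM and fell by 0.27. The importin alpha gene Pen was at 642, 653 and 668 CPM against 551, 550 and 546 CPM and fell by 0.25.

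Of the 46 tested genes of early follicle, escort and niche cells 1 was called higher and 2 lower, beside 0.343% and 1.11% of all tested genes. The list's median was 0.11, and 31 of the 46 estimates were above 0. Fas2, an adhesion protein gene of the follicle epithelium, was at 115, 116 and 123 CPM in reproductive and 164, 133 and 164 CPM in diapause libraries and rose by 0.38 ± 0.09 (adjusted p = 0.0484). retained (retn), which encodes a transcription factor with an ARID domain, was at 167, 154 and 157 CPM against 115, 137 and 128 CPM and fell by 0.33 ± 0.08 (adjusted p = 0.0484). Pdk1, a kinase of the insulin pathway that is also in the insulin and TOR list, was at 216 ± 0.609 CPM in the 3 reproductive libraries against 150, 195 and 171 CPM and fell by 0.33 ± 0.07 (adjusted p = 0.0283). It was the single call among 29 tested genes of insulin and TOR signalling.

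In the lists of lipid storage, heat shock proteins and endoplasmic reticulum chaperones, 2 of 42, 1 of 21 and 1 of 29 tested genes fell, beside 1.11% of all tested genes. Of the estimates, 23 of 42, 8 of 21 and 10 of 29 were above 0. Lsd-2, a perilipin that coats lipid droplets, was at 594, 545 and 565 CPM in reproductive and 418, 482 and 386 CPM in diapause libraries. It fell by 0.41 ± 0.08 (adjusted p = 0.0187) and with bgm was 1 of 2 genes called of 42 in the lipid list, whose median was 0.03 and turned to -0.02 with libraries scaled by total counts. The small heat shock gene Hsp27 was at 185, 182 and 198 CPM against 103, 143 and 67.5 CPM and fell by 0.85 ± 0.18 (adjusted p = 0.0454). Its neighbour in the list, Hsp26, differed by -0.81 with an adjusted p of 0.0815. The endoplasmic reticulum chaperone gene Hsc70-3 was at 907, 888 and 905 CPM against 680, 806 and 759 CPM and fell by 0.27 ± 0.06 (adjusted p = 0.0393). The Toll ligand gene spz (-0.35) was the single call of 21 tested immune effector genes, whose median was 0.12. Cyp6a19 (-0.39) was the single call of 53 tested cytochrome P450 genes, a share near that over all genes, and the median of that list was 0.09. Pgant6 (-0.26), an enzyme of mucin-type glycosylation, was the single call of 7 tested genes (median -0.05).

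Among the 31 higher genes, the larger changes were in genes of low abundance. CG9411, an unnamed gene of the X chromosome, was at 6.77, 6.74 and 5.41 CPM in reproductive and 14.6, 12.2 and 17.4 CPM in diapause libraries. It rose by 1.22 ± 0.20 (adjusted p = 0.00740). mthl2, a receptor gene of the methuselah family, was at 2.40, 2.50 and 2.73 CPM against 5.91, 3.92 and 5.62 CPM and rose by 1.02 ± 0.24 (adjusted p = 0.0454). Jhbp7, of the juvenile hormone binding protein family, was at 2.46, 2.86 and 3.92 CPM against 7.26, 6.05 and 5.19 CPM. It rose by 1.00 ± 0.21 (adjusted p = 0.0283). Jhbp7 was the single call of 14 tested genes in the juvenile hormone list, beside 0.343% called higher over all tested genes. The peptidase gene Nep1, of the neprilysin family, was at 22.6, 13.9 and 14.2 CPM against 30.3, 27.9 and 24.5 CPM and rose by 0.71 ± 0.16 (adjusted p = 0.0393).

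In the list of muscle genes, Zasp52, of the muscle Z-disc, was at 121, 115 and 119 CPM in reproductive and 159, 139 and 147 CPM in diapause libraries. It rose by 0.32 ± 0.08 (adjusted p = 0.0454), the single call of 34 tested muscle genes, of which 30 estimates were above 0 at a median of 0.45. Outside that list, sals, a regulator of thin filament length in sarcomeres, rose by 0.60 ± 0.14 (adjusted p = 0.0454) from 6.65, 10.3 and 8.40 to 13.5, 11.6 and 13.5 CPM. SPARC, a collagen-binding protein of basement membranes, was at 84.5, 96.8 and 97.4 CPM against 121, 113 and 124 CPM and rose by 0.36 ± 0.08 (adjusted p = 0.0382). It was the single call of 21 tested basement membrane and matrix genes (median 0.36) and of 11 tested haemocyte genes (median 0.36). The single calls in the muscle, matrix and haemocyte lists stand beside 0.343% called higher over all tested genes. The transglutaminase gene Tg (0.54), the cation channel gene pain (0.37), the hydroxylase gene Asph (0.56) and the tetraspanin gene Tsp42Eg (0.61) rose as well. The non-muscle myosin gene zip (0.29) and the collagen-modifying hydroxylase gene Plod (0.34), picked after their values were seen, were also called higher.

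Markers of non-follicular somatic cells were measured beside these genes. The 38 muscle genes together took 0.337%, 0.336% and 0.376% of the counts in the diapause libraries and 0.278%, 0.320% and 0.300% in the reproductive libraries, so the groups did not overlap. The muscle myosin heavy chain gene Mhc was at 97.0, 151 and 130 CPM in reproductive and 181, 191 and 248 CPM in diapause libraries (log2 difference 0.71 ± 0.21, adjusted p = 0.110). The 21 haemocyte genes took from 0.0483% to 0.0585% in diapause and from 0.0454% to 0.0484% in reproductive libraries, and all 11 tested genes of the list had estimates above 0. Of the defining haemocyte markers, Hml had 48, 48 and 24 reads in diapause and 10, 30 and 30 in reproductive libraries. Pxn had 392, 388 and 379 against 157, 360 and 301. He had 0 reads in every diapause library and 0, 0 and 1 in the reproductive libraries. The scavenger receptor gene crq, with 5096, 3863 and 3481 reads against 3729, 4309 and 4273, held most of the reads of the list's defining markers. The 19 fat body genes took from 0.063% to 0.069% of the counts in diapause and from 0.058% to 0.068% in reproductive libraries, so the groups overlapped. Of the defining fat body markers, Lsp2 had 0, 12 and 0 reads in diapause and 4, 3 and 8 in reproductive libraries. Fbp2 had no read in the 6 libraries. The 20 oviduct, spermatheca and tracheal genes took from 0.00366% to 0.00416% in diapause and from 0.00269% to 0.00355% in reproductive libraries. In 10 of the 15 tested genes of that list the diapause libraries all lay above the reproductive ones, and in 1 all below. In the muscle list this was 21 of 34 above and 0 below. Over all tested genes it was 13.4% above and 12.7% below. The part of muscle cells and of the other cell types in the higher genes was not tested.

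**Figure D4:**
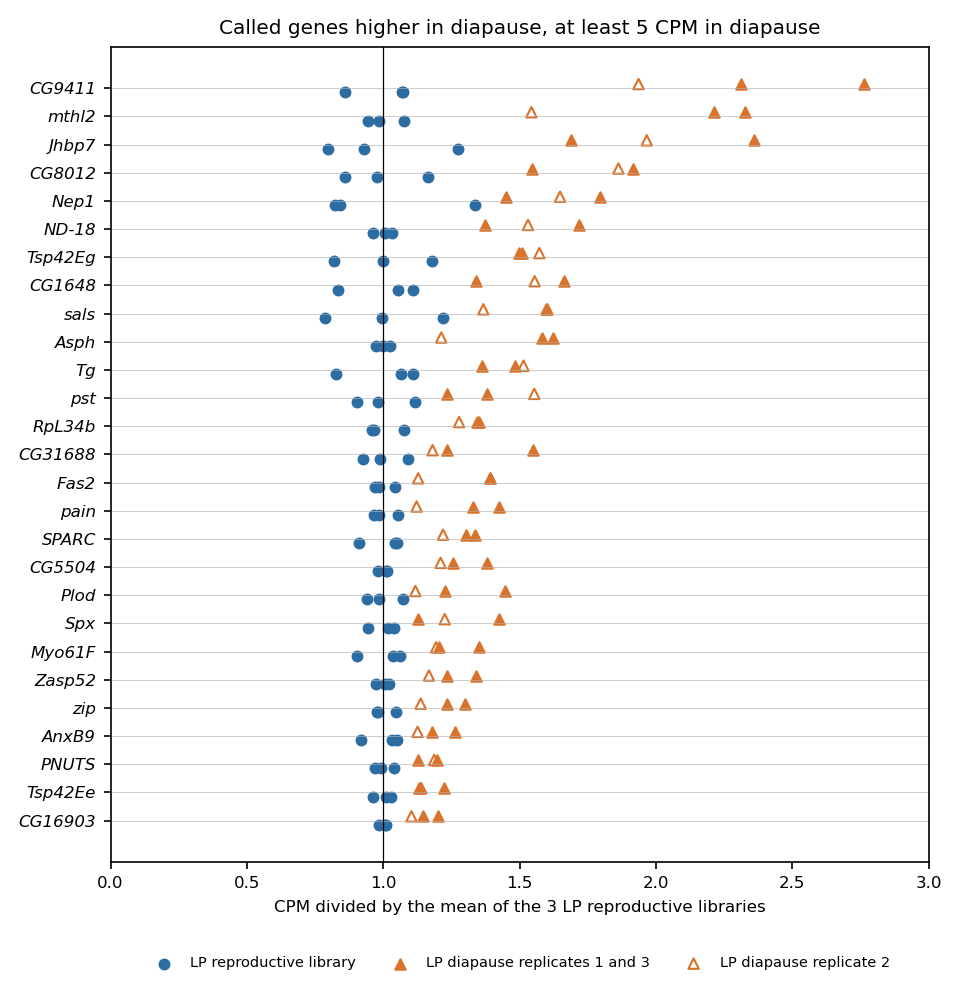
CPM of each LP library divided by the mean of the 3 LP reproductive libraries (horizontal axis) for the 27 genes called higher with at least 5 CPM in diapause (vertical axis). Circles are reproductive libraries, filled triangles diapause replicates 1 and 3 and open triangles replicate 2. Most of the genes lie below a ratio of 2, and CG9411 has the widest separation.

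Most estimates of ribosomal protein genes lay slightly above 0. Of 85 tested cytosolic ribosomal protein genes, 84 estimates were above 0 at a median of 0.15 (range -0.07 to 1.65), and in 83 genes the groups did not overlap, beside 13.4% of all tested genes. They took 19.4%, 19.1% and 19.4% of the counts in the diapause libraries and 16.9%, 17.7% and 17.7% in the reproductive libraries. The median stayed above 0, at 0.11, with libraries scaled by total counts. RpL34b, a paralogue of RpL34a, was the single call, at 1549, 1538 and 1723 CPM in reproductive and 2168, 2049 and 2153 CPM in diapause libraries (log2 fold change 0.41 ± 0.10, adjusted p = 0.0454). RpL34a differed by 0.14 ± 0.08 (adjusted p = 0.392), and reads of such copies may be split between them. In the list of oxidative phosphorylation 62 of 66 estimates were above 0 at a median of 0.08, and ND-18, a subunit of complex I, rose by 0.62 ± 0.14 (adjusted p = 0.0454) from 43.7, 45.7 and 46.8 to 78.1, 69.5 and 62.5 CPM. The medians were 0.04 for mitochondrial ribosomal proteins, 0.08 for translation factors, 0.02 for tRNA synthetases and -0.02 for the proteasome, with no gene called in these 4 lists. With total counts the medians of mitochondrial ribosomal proteins and tRNA synthetases turned to -0.001 and -0.02.

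No member of the 3 lists of histone methylation and Polycomb genes was called. None of 26 histone methyltransferase and partner genes, 15 demethylase genes and 38 Polycomb and trithorax group genes passed, and each of the 3 medians was -0.08. The smallest p among the last belonged to pho-like (phol), a DNA-binding Polycomb group gene, at 109, 97.0 and 96.2 CPM in reproductive and 88.4, 83.2 and 76.0 CPM in diapause libraries (log2 difference -0.29 ± 0.09, adjusted p = 0.0929). The demethylase gene Kdm4A differed by -0.24 ± 0.08 (adjusted p = 0.133), Utx by -0.14 ± 0.05 (adjusted p = 0.206), and the menin gene Mnn1, a partner of a histone methyltransferase complex, by -0.19 ± 0.07 (adjusted p = 0.155). The estimates of the 3 lists ran from -0.29 to 0.26. Outside these lists, and picked after their values were seen, Hira, a chaperone of histone H3.3, fell by 0.35 ± 0.08 (adjusted p = 0.0393) from 48.8 ± 2.40 to 38.4 ± 1.92 CPM, a call lost without any 1 library.

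No member was called either in the lists of ecdysone synthesis and response, of the piRNA pathway, of the circadian clock and diapause-linked genes, of egg chamber cell death, of autophagy or of neurons and fat body. Nxt1, a nuclear RNA export gene of the piRNA list, came nearest, at 54.0 ± 1.44 CPM in reproductive and 66.1 ± 2.15 CPM in diapause libraries (log2 difference 0.29 ± 0.08, adjusted p = 0.0546). Hr4, an ecdysone-responsive nuclear receptor gene, was at 19.4, 15.8 and 19.1 CPM in reproductive and 12.2, 11.2 and 7.88 CPM in diapause libraries (log2 difference -0.79 ± 0.21, adjusted p = 0.0620). eyes absent (eya), a gene linked to seasonal state, was at 58.3 ± 4.68 and 70.3 ± 7.55 CPM and differed by 0.27 ± 0.12 (adjusted p = 0.277). couch potato (cpo), linked to diapause variation in this species, was at 32.5 ± 2.51 and 32.9 ± 0.915 CPM, a difference of 0.02 ± 0.11 with an adjusted p of 0.960. Tests on simulated counts of this comparison called 20% of genes changed by 0.25 on the log2 scale and 59.2% of those changed by 0.5. In such counts, changes of the size seen in most lists thus often went uncalled with 3 libraries. Whether these shares hold for the real libraries was not tested.

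The same contrast in HP, between 3 diapause and 3 reproductive libraries at 12 °C, called 77 genes (0.852%), 18 higher (0.199%) and 59 lower (0.653%). Of the 131 genes called in LP, 17 were also called in HP, 1 of them higher and 16 lower. The medians of the LP-called genes in HP were 0.17 for the 31 higher and -0.24 for the 100 lower genes, against 0.47 and -0.38 in LP, where the genes were chosen. No gene passed the test of the difference between the 2 effects by edgeR's quasi-likelihood test, while 366 of 9037 had an unadjusted p under 0.05, and DESeq2 called 6. Hsc70-3, Marf1, nanos, Lsd-2, bgm, cmet, TTLL5, retn and SPARC were among the 17.

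Of the LP-called genes, jv had the smallest p for a difference between the lines. In HP it was at 2.83 ± 0.677 CPM in reproductive and 2.59 ± 0.296 CPM in diapause libraries, a difference of -0.11 ± 0.24, and the LP effect was 1.60 ± 0.34 lower on the log2 scale (adjusted p = 0.401). CG9411 was at 1.19 ± 0.152 and 1.10 ± 0.187 CPM in HP, and its 2 effects differed by 1.32 ± 0.35 (adjusted p = 0.716). The genes pst and Dscam4, both higher in LP diapause, stood far lower in LP than in HP in both states. pst was at 9.33 ± 0.996 CPM in LP and 204 ± 10.3 CPM in HP reproductive libraries, and Dscam4, picked after its values were seen, at 0.921 ± 0.328 and 82.7 ± 5.40 CPM.

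**Figure D5:**
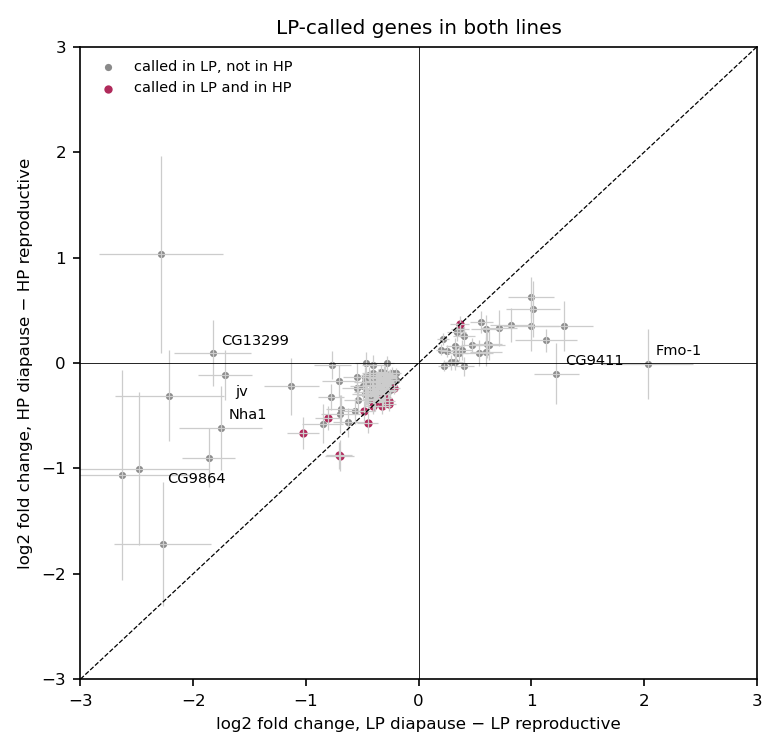
Log2 fold change of diapause over reproductive ovaries in LP (horizontal axis) and HP (vertical axis) for 128 of the 131 genes called in LP, with SE bars, and the dashed line of equal effects. The 3 genes with an LP change beyond 3 are not drawn. Genes also called in HP are dark red, and jv, Fmo-1 and CG9411 lie near 0 in HP.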

How the data were processed

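Whole-number read counts per gene were deposited by the authors as 1 table of 17611 genes and 18 libraries. Per the submitters' processing notes, Trimmomatic, STAR, featureCounts and DESeq2 were used, with no versions. Genome build, annotation and the strand and multi-mapping settings of counting are not given in the sources used here. Of 17556 identifiers matched to the BDGP6.54 annotation, 17540 had the same chromosome, start and end. Totals ran from 14352846 to 21343992. Genes were filtered by edgeR's filterByExpr, leaving 9037. edgeR 4.0.16 (R 4.3.3) fitted its quasi-likelihood model with TMM factors and robust weighting to all 18 libraries as 6 groups, so that the spread was estimated with 12 residual degrees of freedom. Reported p-values are Benjamini-Hochberg adjusted over all 9037 genes with a threshold of 0.05, and a gene past it is termed called. An exact permutation test of 3 against 3 cannot go below a p of 0.1. DESeq2 1.42.0 was an alternative. On simulated data, 5 of 123 calls were unchanged genes. Whether this share holds for the real libraries, where diapause replicate 2 stood apart, was not tested.

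The 42 gene lists, the comparison and the rule for named genes were chosen with earlier results of these data known. Genes were named from the 12 called genes with the largest change in each direction that have a name and at least 5 CPM, the called list members, and the genes with the smallest p of lists with no call, of which only some are printed. Genes named beside these, such as those set beside a called gene without being called themselves, were picked after their values were seen. A result of 1 called gene is not reported here. Nothing states that the biological replicates came from separate groups of animals, so p-values measure the spread between these libraries. Exons of 38 called genes overlap those of another tested gene, in 36 on the opposite strand, among them aurA, mars, mad2, fzy, Mps1, nanos and ndl. Reads of such pairs could not be told apart if strand was not used in counting.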

Additional observations from a re-analysis of the deposited data

How the results depend on the processing

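With 131 genes called in the comparison of states in LP, a test against a change of 1.5-fold (glmTreat) called 1, DESeq2 called 447 (134 higher, 313 lower, all 131 included), and a fit on the 6 libraries alone called 262, of which 86 were among the 131 and 47.3% were higher. Leaving out 1 library gave 6 to 279 calls. Median-of-ratios factors gave 143, total counts 174, no expression filter 103, at least 5 CPM 142 and no robust weighting 131 calls. The fit with the replicate number as a block gave 110 calls, 87 of them shared, and libraries of the same number correlated at 0.164, -0.088 and 0.035 in their deviations from the group means, so the numbers were not taken to pair them. For the difference between the lines, DESeq2 called 6 genes and leaving out 1 library gave 0 to 1, and the block fit gave 0. No called named gene changed its direction under these settings. For the fits without 1 library this follows from groups that did not overlap. Named genes that were not called are not covered by this statement. Of the values of single named genes, 931 kept their side of the threshold, 359 lost the call and 25 gained it. Depth limits the genes under about 1 CPM, such as Fmo-1, and the causes of these shifts were not tested.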

Other observations

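RpL22, a ribosomal protein gene, was at 269, 281 and 339 CPM in LP reproductive and 1328, 741 and 717 CPM in LP diapause libraries, a log2 difference of 1.65 ± 0.38 with an adjusted p of 0.0546 that stands far above the median of 0.15 for ribosomal protein genes. Fmo-1, a flavin monooxygenase gene, was the called gene with the largest increase, at 0.300, 0.255 and 0.412 CPM in reproductive and 0.986, 1.58 and 1.47 CPM in diapause libraries (log2 fold change 2.03 ± 0.40, adjusted p = 0.0261). CG11381, an unnamed gene of the X chromosome, fell as steeply as the chorion genes, from 37.0, 10.5 and 32.9 CPM to 0.104, 0.327 and 0.244 CPM (log2 fold change -6.86, from -7.25 to -6.50 over the fits without 1 library, adjusted p = 0.0484), and its call was lost when any 1 library was left out. These 3 genes were picked after their values were seen.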
